A study of Mus musculus with 6 samples.

Results

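The genes described here are the potassium channel genes, taken as the 92 genes of 53746 in the deposited count table whose symbols consist of Kcn, a subfamily letter or letters, and a number. They fell into 20 subfamilies and 6 classes, which were the pore-forming voltage-gated subunits, the modulatory voltage-gated subunits, the inward rectifiers, the tandem-pore channels, the calcium- or sodium-activated channels and the auxiliary subunits. Of these, 61 passed edgeR's filter on low counts and were tested among 16961 genes, and 31 were not tested. All 6 mice were 2 months old. Of these, 3 had the genotype *N153S* LSL/LSL *Pcp2-cre* and are called Pcp2-cre mice, and 3 had *N153S* LSL/LSL without Cre and are called control mice. Both genotypes carried the *Sting1* N153S knockin behind a LoxP-Stop-LoxP cassette, and the *Pcp2* promoter limits Cre in the cerebellum to Purkinje cells, where the mutant is then switched on. No mice with *Pcp2-cre* alone were among the samples. Mice 1 and 2 of each genotype were labelled male and mouse 3 female, so sex cannot be told apart from mouse number. A whole perfused cerebellum was sequenced after poly A selection, and a value therefore mixes all of its cell types.

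Potassium channels let potassium leave or enter a cell along its gradient and so set the resting potential, end each action potential and fix the interval to the next one. Purkinje cells fire without synaptic input, and they rely on fast voltage-gated channels to end each spike and on large-conductance calcium-activated (BK) channels to shape the afterhyperpolarization. Granule cells depend on leak channels and on A-type channels, and glia take up potassium released by active neurons through inward rectifiers. Auxiliary subunits do not form the pore but change the gating or the surface level of those that do.

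The selectivity filter is the part that the pore-forming members share, and it is shown here for the pore-forming and modulatory members that passed the thresholds below. A script translated the coding sequence of each member's canonical Gencode M39 transcript and searched it for serine or threonine, any residue, glycine, then tyrosine, phenylalanine or leucine, then glycine. The pattern occurred in 77 of 77 pore-forming or modulatory members and in 0 of 15 auxiliary members. It occurred 2 or more times in 13 of 14 tandem-pore members, whose subunits hold a pair of pore loops. It also did so in 2 of 30 pore-forming voltage-gated members, *Kcna6* and *Kcnh2*, so a repeated match does not by itself show a pair of loops. Each line gives 45 coding bases read from the GRCm39 genome, 5′ to 3′ on the coding strand, with the codons for glycine, the aromatic residue or leucine, and glycine in capitals.
*Kcnh7*, chr2:62607672-62607716, reverse strand: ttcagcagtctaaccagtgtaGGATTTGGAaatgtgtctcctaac
*Kcng4*, chr8:120352634-120352678, reverse strand: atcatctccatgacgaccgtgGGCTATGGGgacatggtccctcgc
*Kcns1*, chr2:164006759-164006803, reverse strand: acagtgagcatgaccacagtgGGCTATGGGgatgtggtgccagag
*Kcnj2*, chr11:110963018-110963062, forward strand: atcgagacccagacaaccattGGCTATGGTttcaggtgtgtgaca
*Kcnj13*, chr1:87316728-87316772, reverse strand: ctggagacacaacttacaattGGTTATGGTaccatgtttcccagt
*Kcnma1*, chr14:23578466-23578510, reverse strand: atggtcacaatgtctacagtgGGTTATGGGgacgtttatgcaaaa
*Kcnk6*, chr7:28924946-28924990, reverse strand: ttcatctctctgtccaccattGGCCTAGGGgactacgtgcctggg
The line for *Kcnh7* codes for phenylalanine and that for *Kcnk6* for leucine at the middle position, and the other lines code for tyrosine. The *Kcnk6* line is its second pore loop, and the codons of its first loop are split between exons and are not printed.

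Total counts lay between 6733178 and 10178218 per mouse, and a floor of 3 counts came to 0.297 to 0.447 CPM (counts scaled to a TMM-adjusted library size), which covers counting error only. *Sting1*, the engineered gene, had 25.5 ± 2.09 CPM in controls and 38.0 ± 5.55 CPM in Pcp2-cre mice (SD, n = 3 each), with no overlap between genotypes. In public single-cell data cited by the paper, *Sting1* mRNA was seen only in microglia and was low or undetectable in neurons. By staining, however, the paper found STING protein in Purkinje cells of the cerebellum. In Pcp2-cre mice the protein was raised in Purkinje cells but not in microglia. The paper regarded staining as the more reliable guide to where STING is expressed. Which cells the *Sting1* RNA here came from was not tested. In bulk tissue, fewer cells of a type and less RNA per cell cannot be told apart, and Purkinje cell markers differed between these genotypes. All 12 of 12 listed Purkinje cell markers passed 0.05 after adjustment in the lower direction, with a median log2 fold change of -0.75. Their summed level was 8418 to 9171 CPM in controls and 4754 to 5325 CPM in Pcp2-cre mice. Of 12 microglia markers, 10 were called higher, and their sum was 104.2 to 107.0 CPM in controls and 314.5 to 370.5 CPM in Pcp2-cre mice. None of the markers on either list was at 0 in all mice, and the part of either cell type in the changes below was not tested.

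More potassium channel genes fell than rose in Pcp2-cre cerebella. A gene was called where edgeR's p, adjusted by Benjamini-Hochberg over all 16961 genes, was 0.05 or less and its log2 fold change was 0.5 or more in either direction, the thresholds of the study. By this rule 6 of 61 tested members were called lower, which is 9.84% against 1.79% of all tested genes. They were *Kcng4*, *Kcnab1*, *Kcnip1*, *Kcnma1*, *Kcnh7* and *Kcnj13*. The last is a choroid plexus gene that varied widely among controls, and its groups overlapped. The 3 called higher were *Kcnj2*, *Kcns1* and *Kcnk6*, which is 4.92% of members against 1.37% of all tested genes. Without the threshold on size, 11 members were lower, 18.0% against a background of 4.75%, and 5 were higher, 8.20% against 2.99%. Over the 61 members the median log2 fold change was -0.037, with 40 below 0 and 21 above, and over all tested genes it was 0.0045. For 16 members the highest Pcp2-cre mouse was below the lowest control mouse, 26.2% against 11.4% of all tested genes, and for 7 the order was the opposite, 11.5% against 10.8%.

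These counts rested in part on single mice. Without Pcp2-cre mouse 2 the number called lower was 2 and the number lower at any size was 7, and *Kcnab1* and *Kcnip1* remained lower with log2 fold changes of -0.49 and -0.47. The number called higher was 1 without control mouse 1, Pcp2-cre mouse 1 or Pcp2-cre mouse 2, and the number higher at any size was then 2, 2 and 3. *Kcnj2* kept its call in 17 of 17 alternative analyses, *Kcng4* and *Kcnma1* in 16, and *Kcnab1* and *Kcnip1* in 15. The calls of *Kcnh7* (8 of 17), *Kcnj13* (7 of 16), *Kcns1* (6 of 17) and *Kcnk6* (5 of 17) were the least stable. Of the members lower or higher at any size, *Kcnip4*, *Kcnj10* and *Kcnk2* each passed the adjusted p threshold in 9 of 17.

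**Figure D1:**
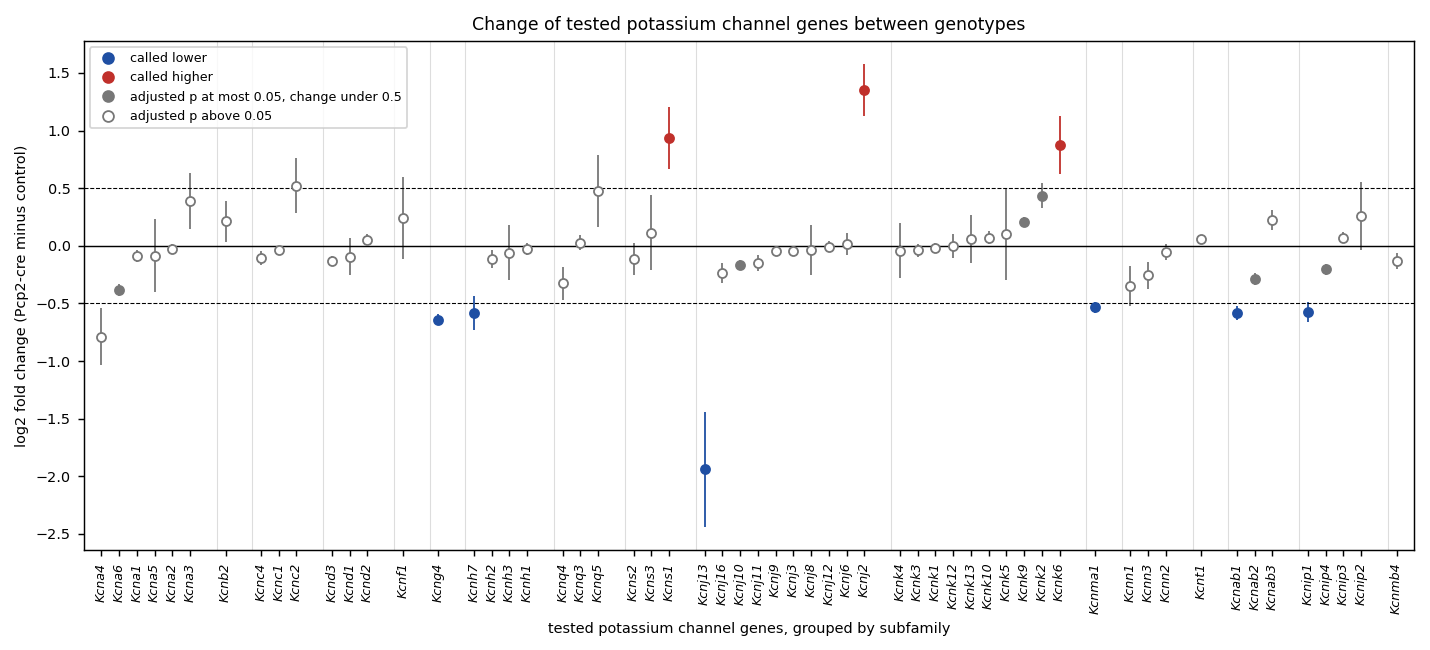
Log2 fold change (Pcp2-cre minus control, vertical axis) of 58 of the tested potassium channel genes, grouped by subfamily along the horizontal axis. Points are edgeR estimates, bars are 1 standard error and dashed lines mark a change of 0.5, and *Kcnj13* at -1.94 and *Kcnj2* at 1.35 lie farthest from 0.

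Levels are compared between genes only in FPKM, the authors' value per exon length and library size. By their control means, 3 members reached 100 FPKM, 26 lay from 10 to 100, 19 from 1 to 10 and 44 under 1 FPKM. Among the abundant members, *Kcnc1* lay at 149 ± 5.02, *Kcnt1* at 114 ± 3.48, *Kcnk1* at 76.9 ± 2.76 and *Kcnab1* at 48.0 ± 2.59 FPKM (SD, n = 3 mice). Below them *Kcnd2* and *Kcna2* lay at 45.0 and 44.7 FPKM, closer together than their SDs. The sum over all 92 members was 1338 ± 11.3 FPKM in controls and 1223 ± 44.6 FPKM in Pcp2-cre mice (SD, n = 3), which is a description and was not tested.

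**Figure D2:**
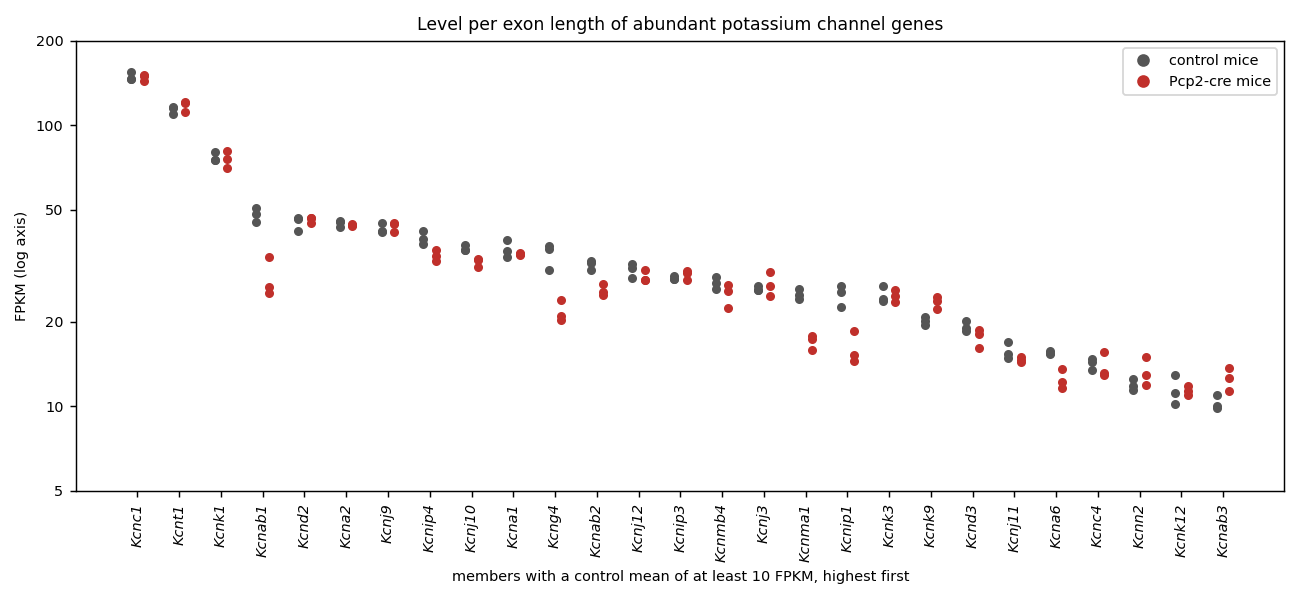
FPKM on a log axis in each mouse for 27 potassium channel genes with a control mean of at least 10 FPKM, ordered from the highest. Grey points are the 3 control mice and red points the 3 Pcp2-cre mice, and the genotypes are separated for *Kcnab1*, *Kcng4*, *Kcnma1* and *Kcnip1* while *Kcnc1*, *Kcnk1* and *Kcna2* overlap.

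The pore-forming voltage-gated subunits open on depolarization and repolarize the membrane. Of 30 such members 23 were tested, 3 of them were lower at any size, 1 of these was called and none was higher. *Kcna6* and *Kcnh7* are described here.

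*Kcnc1*, which encodes a fast Kv3 channel found in granule cells among others, did not pass the test. It had 796, 805 and 831 CPM in controls and 816, 771 and 784 CPM in Pcp2-cre mice, and the groups overlapped. On the log2 scale the change was -0.037 (standard error 0.0360, edgeR adjusted p = 0.678). The Kv3 genes *Kcnc4* (log2 fold change -0.10) and *Kcnc2* (0.52) did not pass the test, with edgeR adjusted p of 0.405 and 0.243.

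The Kv1 subfamily, whose low-threshold channels sit on axons and on basket cell terminals around Purkinje cells, had 1 of 6 tested members lower. *Kcna6* had 107, 97.5 and 106 CPM in controls and 84.0, 75.03 and 80.2 CPM in Pcp2-cre mice, without overlap. The change came to a log2 value of -0.38 (standard error 0.0521, edgeR adjusted p = 2.60e-05). The exons of *Kcna6* share 2362 bases with *Gm26673* on the opposite strand, and the use of strand in counting was not stated, so the pair cannot be told apart. *Kcna1*, mutated in episodic ataxia, was at 158 to 189 CPM in controls and 159 to 170 CPM in Pcp2-cre mice. *Kcna2*, the most abundant Kv1 gene, was at 563 to 589 and 551 to 584 CPM. Both overlapped between genotypes, with edgeR adjusted p of 0.412 and 0.817. *Kcna4*, an A-type Kv1 gene of low level, had 28, 20 and 42 counts in controls and 15, 21 and 12 in Pcp2-cre mice, and its log2 fold change of -0.79 had an edgeR adjusted p of 0.0551. It is named after its values were seen, as the member nearest to the threshold.

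*Kcnh7* encodes an erg channel, a slow voltage-gated channel that dampens repeated firing. It had 14.1, 15.2 and 11.9 CPM in controls and 10.8, 9.23 and 6.95 CPM in Pcp2-cre mice. The lowest control mouse lay only just above the highest Pcp2-cre mouse. The fitted log2 fold change was -0.58 (standard error 0.149, edgeR adjusted p = 0.0155). By DESeq2 its adjusted p was 0.0943, and by edgeR it was 0.0791 without Pcp2-cre mouse 2, 0.103 without Pcp2-cre mouse 3, 0.0706 without control mouse 1 and 0.0657 without control mouse 2. *Kcnh7* lies on chromosome 2 from 62523758 to 63014910 on the reverse strand and shares up to 2886 exonic bases with genes of the opposite strand, *Gca* and *Gm34110*. The most abundant member of this subfamily, *Kcnh1*, changed by -0.029 on the log2 scale (edgeR adjusted p = 0.850).

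No member of the Kv4 subfamily passed. The A-type gene *Kcnd2*, strong in granule cells, had 245 to 269 CPM in controls and 258 to 292 CPM in Pcp2-cre mice. *Kcnd3* had 138 to 147 CPM in controls and 124 to 132 CPM in Pcp2-cre mice without overlap, but its log2 fold change of -0.13 had an edgeR adjusted p of 0.0567.

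The modulatory voltage-gated subunits are silent alone and change the gating of other voltage-gated channels when they assemble with them. Of 10 such members 5 were tested, 1 was called lower and 1 called higher. *Kcng4* was the one called lower, and among all members it had the smallest adjusted p. It lies on chromosome 8 from 120349688 to 120362762 on the reverse strand and shares 232 exonic bases with *Gm46054* on the other strand. Its level was 152, 152 and 138 CPM in controls and 101, 88.8 and 93.2 CPM in Pcp2-cre mice. All Pcp2-cre mice lay well below all controls. This gave a log2 fold change of -0.64 (standard error 0.0511, edgeR adjusted p = 1.30e-08), which left 64.2% of the control level. *Kcng4* made up 98.9% of the summed Kcng subfamily in control mice, which went from 35.0 ± 3.47 to 21.9 ± 1.85 FPKM (SD, n = 3).

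*Kcns1*, a modulatory subunit best known from sensory neurons, was called higher at a low level. It had 20, 11 and 22 counts in controls and 29, 47 and 19 counts in Pcp2-cre mice, or 2.50, 1.64 and 2.18 CPM against 3.82, 5.43 and 2.81 CPM. The Pcp2-cre mice were all above the controls, although mouse 3 only slightly. On the log2 scale the change was 0.94 (standard error 0.269, edgeR adjusted p = 0.0326). Without any one of the 3 control mice or of Pcp2-cre mice 1 and 2 it no longer passed, and without Pcp2-cre mouse 2 it was 0.64 with an edgeR adjusted p of 0.307. With DESeq2 the adjusted p was 0.292. *Kcns2*, the most abundant of the subfamily, changed by -0.11 on the log2 scale (edgeR adjusted p = 0.748).

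The inward rectifiers pass potassium near the resting potential, and of 15 members 10 were tested. *Kcnj2*, a strong rectifier of vessels, heart and macrophage-lineage cells, rose the most of all tested members. It lies on chromosome 11 from 110956981 to 110967665 on the forward strand. It had 18, 13 and 30 counts in controls and 39, 55 and 50 counts in Pcp2-cre mice, which is 2.25, 1.94 and 2.97 CPM against 5.14, 6.35 and 7.40 CPM. All Pcp2-cre mice were above all controls. The change came to a log2 value of 1.35 (standard error 0.225, edgeR adjusted p = 2.92e-04), a 2.56-fold rise, and *Kcnj2* was the member whose call held in every alternative run. In FPKM its level went from 0.367 ± 0.0804 to 1.04 ± 0.0918 (SD, n = 3). That was the lowest mean of the 10 tested inward rectifiers in both genotypes.

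*Kcnj10*, the glial channel that clears potassium around synapses, was lower by a small amount. It had 226, 228 and 223 CPM in controls and 197, 200 and 206 CPM in Pcp2-cre mice, without overlap. The log2 fold change was -0.17 (standard error 0.0410, edgeR adjusted p = 0.0115). The edgeR adjusted p was 0.0893 without Pcp2-cre mouse 1, 0.0791 without Pcp2-cre mouse 2, 0.0578 without control mouse 1 and 0.0553 without control mouse 2. *Kcnj16*, which assembles with it in glia, had 29.2 to 29.7 CPM in controls and 23.4 to 28.3 CPM in Pcp2-cre mice, and a log2 fold change of -0.23 (edgeR adjusted p = 0.120). Of 10 astrocyte and Bergmann glia markers, 2 were called higher (*Gfap* and *Aqp4*), and 2 were lower and 4 higher at any size. The lower ones were *Slc1a3* and *Gdf10*, with log2 fold changes of -0.22 and -0.25 (edgeR adjusted p = 9.95e-05 and 0.00424). The sum of the 10 markers was 3041 to 3076 CPM in controls and 3429 to 3507 CPM in Pcp2-cre mice. Within it, *Gfap* alone went from 121 ± 8.54 to 463 ± 34.7 CPM (SD, n = 3). The part of glia in the change of *Kcnj10* was not tested.

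The G protein-gated rectifiers of granule cells, opened by GABA type B and other receptors, did not pass. *Kcnj9*, the most abundant inward rectifier at 42.7 ± 1.75 FPKM in controls and 43.6 ± 1.70 FPKM in Pcp2-cre mice, changed by -0.049 on the log2 scale of counts (edgeR adjusted p = 0.614). *Kcnj3* and *Kcnj6* changed by -0.044 and 0.017 (edgeR adjusted p = 0.686 and 0.959). *Kcnj8*, the ATP-sensitive channel of pericytes, had 27 to 38 counts in controls and 22 to 40 in Pcp2-cre mice (edgeR adjusted p = 0.962), and 0 of 8 vascular markers passed the test.

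*Kcnj13* and *Kcne2* are genes of the choroid plexus epithelium, which secretes cerebrospinal fluid, and both varied more among controls than any other member with a control mean of at least 10 counts. *Kcnj13* had 80, 116 and 23 counts in controls and 9, 18 and 28 counts in Pcp2-cre mice. Control mouse 3 lay within the range of the Pcp2-cre mice, so the groups overlapped. This gave a log2 fold change of -1.94 (standard error 0.499, edgeR adjusted p = 0.0158). In male mice alone, which left out control mouse 3, it was -3.0 (edgeR adjusted p = 3.18e-09). Set against control mouse 3 alone it was 0.072. The call was also lost without control mouse 1 (edgeR adjusted p = 0.0698), control mouse 2 (0.112), Pcp2-cre mouse 1 (0.129) or Pcp2-cre mouse 2 (0.157). The exons of *Kcnj13* share 669 bases with *Gigyf2* on the opposite strand.

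*Kcne2*, a small auxiliary subunit, was not tested because too few mice carried enough counts. It had 75, 100 and 4 counts in controls and 3, 2 and 3 counts in Pcp2-cre mice, so control mice 1 and 2 were high while control mouse 3 was near the floor, as were all Pcp2-cre mice. The coefficient of variation among controls was 89.0% for *Kcne2* and 76.2% for *Kcnj13*, ranks 1 and 2 of 63 such members, whose median was 8.03%. They stood at percentiles 99.9 and 99.7 of 16916 genes. The 10 choroid plexus markers summed to 825, 1270 and 33.7 CPM in control mice 1, 2 and 3 and to 25.3, 33.1 and 89.95 CPM in Pcp2-cre mice, and none was at 0 in all mice. *Ttr*, the transthyretin gene that defines this epithelium, ran from 3.07 to 1027 CPM among controls. The part of choroid plexus tissue in the *Kcnj13* and *Kcne2* values was not tested.

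**Figure D3:**
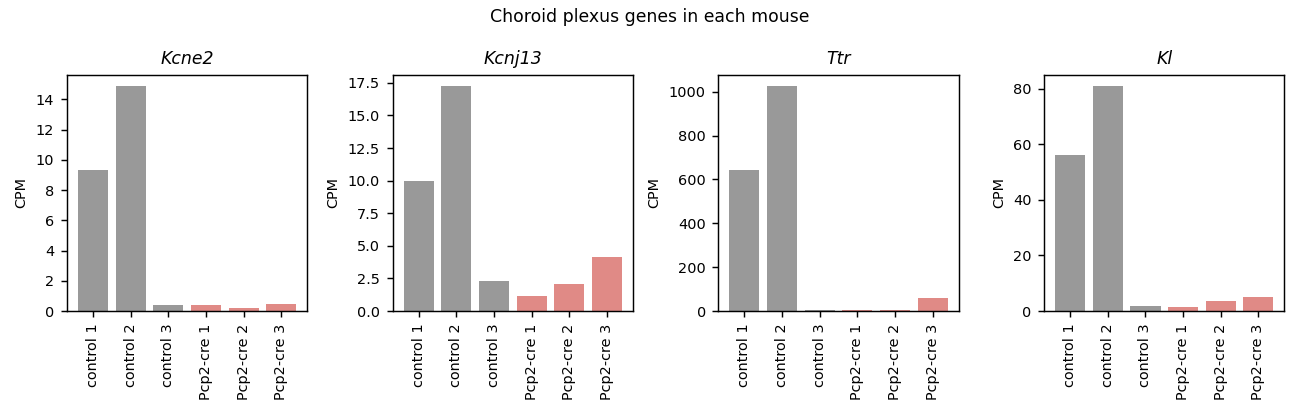
CPM (vertical axis, from 0) of *Kcne2*, *Kcnj13* and the choroid plexus markers *Ttr* and *Kl* in each of the 6 mice, 1 bar per mouse with controls grey and Pcp2-cre mice red. All 4 genes are high in control mice 1 and 2, and control mouse 3 lies within or near the range of the Pcp2-cre mice.

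The tandem-pore (Kcnk) channels carry leak current, and they were the class with members higher but none lower. Of 14 members 10 were tested and 3 were higher at any size, 1 of them called. *Kcnk9*, an acid-sensitive leak channel of granule cells, had 293, 277 and 300 CPM in controls and 336, 331 and 340 CPM in Pcp2-cre mice, without overlap. On the log2 scale the change was 0.21 (standard error 0.0410, edgeR adjusted p = 0.00177). The related *Kcnk3*, which can pair with it, changed by -0.037 on the log2 scale (edgeR adjusted p = 0.812). Granule cell markers summed to 5176 to 5234 CPM in controls and 5361 to 5502 CPM in Pcp2-cre mice, with 0 of 9 called and 1 higher at any size, and their part in the *Kcnk9* value was not tested.

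*Kcnk2*, a leak channel gated by stretch and lipids, had 11.9, 15.04 and 14.96 CPM in controls and 19.1, 17.7 and 20.1 CPM in Pcp2-cre mice. The groups did not overlap. The change came to a log2 value of 0.44 (standard error 0.112, edgeR adjusted p = 0.0159), under the size threshold. The edgeR adjusted p was 0.0615 without Pcp2-cre mouse 1, 0.0881 without Pcp2-cre mouse 3 and 0.121 without control mouse 1, and the DESeq2 adjusted p was 0.1745. Its exons share 729 bases with *A430027H14Rik* on the opposite strand.

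*Kcnk6*, a weakly conducting member reported outside neurons as well, had 12, 16 and 20 counts in controls and 31, 28 and 23 counts in Pcp2-cre mice. That came to 1.497 to 2.38 CPM against 3.23 to 4.08 CPM, without overlap. It lies on chromosome 7 from 28921346 to 28932035 on the reverse strand. The log2 fold change was 0.88 (standard error 0.252, edgeR adjusted p = 0.0334), and leaving out any mouse other than control mouse 2 raised the edgeR adjusted p above the threshold, to 0.179 at most. By DESeq2 the adjusted p was 0.392. *Kcnk1*, the most abundant tandem-pore gene at 76.9 ± 2.76 FPKM in control, changed by -0.017 on the log2 scale (edgeR adjusted p = 0.906).

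*Kcnj2* and *Kcnk6* were also on a list of 5 members known from microglia and macrophages, of which 4 were tested and these 2 were higher. Of the others, *Kcna3* had a log2 fold change of 0.39 and *Kcnk13* of 0.060 (edgeR adjusted p = 0.450 and 0.927), and *Kcnn4* was not tested at 0 to 4 counts per mouse. The homeostatic microglia markers *P2ry12* and *Tmem119* did not pass, while *Cx3cr1* was at 9.38 to 11 CPM in controls and 27.9 to 30.2 CPM in Pcp2-cre mice. Whether *Kcnj2* and *Kcnk6* RNA came from microglia was not tested.

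Among the calcium- or sodium-activated channels, 5 of 8 members were tested and *Kcnma1* was the one that passed. *Kcnma1* encodes the BK channel pore, which opens on depolarization and calcium together. It lies on chromosome 14 from 23339499 to 24064559 on the reverse strand and shares 1063 exonic bases with *4930519K11Rik* on the other strand. Its level was 331, 313 and 312 CPM in controls and 230, 223 and 208 CPM in Pcp2-cre mice. All Pcp2-cre mice lay far below all controls. This gave a log2 fold change of -0.53 (standard error 0.0451, edgeR adjusted p = 3.16e-08), and it was -0.4975, just short of the size threshold, without Pcp2-cre mouse 3.

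*Kcnmb4*, the neuronal BK beta subunit, had 43.4 to 45.4 CPM in controls and 38.6 to 42.3 CPM in Pcp2-cre mice. The groups did not overlap, but its log2 fold change of -0.13 had an edgeR adjusted p of 0.327. The FPKM ratio of *Kcnma1* to *Kcnmb4* was 0.912 ± 0.0757 in controls and 0.681 ± 0.0361 in Pcp2-cre mice (SD, n = 3). *Kcnt1*, the sodium-activated channel, and *Kcnn2*, the small-conductance calcium-activated channel of Purkinje cells, changed by 0.057 and -0.053 on the log2 scale (edgeR adjusted p = 0.465 and 0.759).

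The auxiliary subunits held the largest number of lower members of any class, with 4 of 8 tested and 2 called. *Kcnab1*, a beta subunit that speeds inactivation of Kv1 channels, lies on chromosome 3 from 64856617 to 65285647 on the forward strand. It had 139, 134 and 135 CPM in controls and 99.8, 79.9 and 94.4 CPM in Pcp2-cre mice. Pcp2-cre mouse 2 was the lowest, and no Pcp2-cre mouse reached the controls. On the log2 scale the change was -0.58 (standard error 0.0581, edgeR adjusted p = 3.95e-07), which left 66.8% of the control level. Up to 585 of its exonic bases are shared with genes of the opposite strand.

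*Kcnab2*, the second beta subunit gene, fell less. It had 126, 122 and 134 CPM in controls and 105, 97.0 and 112 CPM in Pcp2-cre mice, and the log2 fold change came to -0.29 (standard error 0.0515, edgeR adjusted p = 6.68e-04). The FPKM ratio of *Kcnab1* to *Kcnab2* was 1.57, 1.57 and 1.38 in controls and 1.25, 1.01 and 1.04 in Pcp2-cre mice. *Kcnab3* had a log2 fold change of 0.23 (edgeR adjusted p = 0.138). The summed beta subunit level was 90.2 ± 3.07 FPKM in controls and 67.1 ± 5.90 FPKM in Pcp2-cre mice (SD, n = 3), and *Kcnab1* made up 53.3% and 42.6% of it.

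The Kcnip genes encode calcium sensors that bind the Kv4 channels and raise their surface level, and 2 of 4 tested were lower. *Kcnip1*, on chromosome 11 from 33576285 to 33943152 on the reverse strand, had 49.8, 50.3 and 47.9 CPM in controls and 38.2, 28.4 and 32.8 CPM in Pcp2-cre mice, without overlap. The change came to a log2 value of -0.58 (standard error 0.0856, edgeR adjusted p = 8.13e-05). *Kcnip4*, the most abundant of them, had 98.9 to 107 CPM in controls and 88.3 to 94.3 CPM in Pcp2-cre mice, and the log2 fold change came to -0.20 (standard error 0.0475, edgeR adjusted p = 0.00842). Its edgeR adjusted p was 0.0522 without Pcp2-cre mouse 2, 0.0511 without Pcp2-cre mouse 3 and 0.0563 without control mouse 3, and by DESeq2 it was 0.0984. *Kcnip3* had a log2 fold change of 0.072 (edgeR adjusted p = 0.449), and the FPKM ratio of *Kcnip1* to *Kcnip3* was 0.873 ± 0.0870 in controls and 0.547 ± 0.0627 in Pcp2-cre mice (SD, n = 3). Of the Kv4 pore genes that these sensors serve, *Kcnd2* and *Kcnd3* did not pass, as given above, nor did *Kcnd1* (log2 fold change -0.093, edgeR adjusted p = 0.840).

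**Figure D4:**
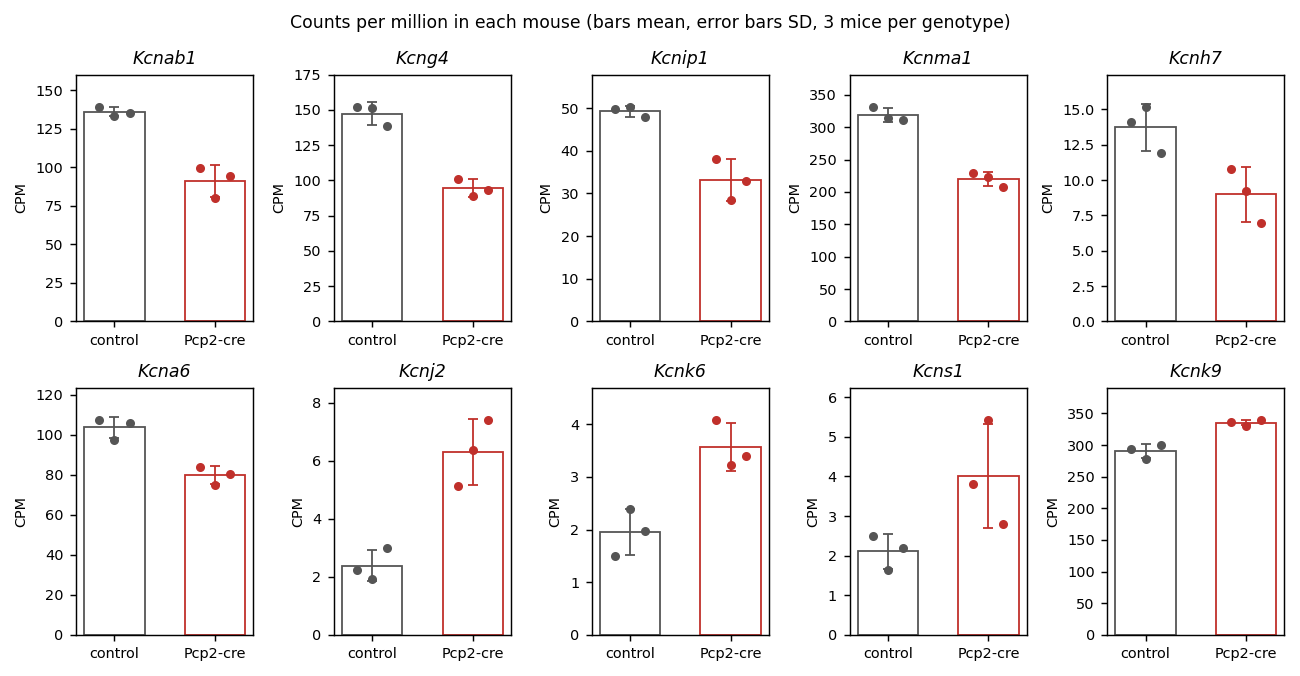
CPM (vertical axis, from 0) of 8 of the 9 called members and of *Kcnk9* and *Kcna6* in each mouse. Points are mice, bars the mean and error bars the SD of 3 mice per genotype. In each of the 10 panels the Pcp2-cre mice lie wholly on one side of the controls. The genes were picked for display, and the groups of *Kcnj13*, the called member not drawn, overlapped. Among all tested genes, the Pcp2-cre mice lay wholly below the controls for 11.4% and wholly above for 10.8%.

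By cell setting, the 8 members known for Purkinje cell firing included 1 called lower and 3 lower at any size, with a median log2 fold change of -0.11. Their summed level was 3004 to 3124 CPM in controls and 2629 to 2727 CPM in Pcp2-cre mice. The 7 members listed for granule cells included 0 called, 1 lower (*Kcnip4*) and 1 higher (*Kcnk9*) at any size, with a median of -0.037. Many of these genes are used by several cell types, and the source of the RNA was not measured. Molecular layer interneuron markers had 3 of 7 lower at any size and none called, and oligodendrocyte markers had 5 of 9 higher at any size and none called.

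Of 25 genes whose products bind potassium channels or work beside them, 24 were tested, 1 was called lower, 3 were lower at any size and none was higher. Among all tested genes, 1.79% were called lower, and 4.75% were lower and 2.99% higher at any size. With so few partner genes, these counts are a description and not a result about the list. *Dpp10*, a transmembrane partner of Kv4 channels, had 203, 196 and 175 CPM in controls and 121, 116 and 117 CPM in Pcp2-cre mice. The log2 fold change was -0.69 (standard error 0.0505, edgeR adjusted p = 3.39e-09), and the groups lay far apart. The related *Dpp6* changed by -0.050 on the log2 scale (edgeR adjusted p = 0.615). *Adam23*, a receptor for the secreted protein LGI1, had a log2 fold change of -0.41, and *Dlg2*, a scaffold that clusters Kv1 channels, of -0.40, with edgeR adjusted p of 1.50e-06 and 1.88e-06. The pacemaker channel genes *Hcn2*, *Hcn3* and *Hcn4* did not pass. *Lrrc52*, a gamma subunit gene, was not tested at 0 to 2 counts per mouse.

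Of the 31 members not tested, *Kcna7* and *Kcnk16* had 0 counts in all 6 mice, and 15 with these included never exceeded the floor of 3 counts. At this depth RNA of *Kcna7* and *Kcnk16* was not detected, which does not show that it was absent. The rest of the 15 had reads in some mouse, but too few to compare. The other 16 rose above the floor in some mouse, and 9 of them reached 10 counts. *Kcnv2*, a modulatory subunit best known from photoreceptors, had 13, 8 and 13 counts in controls and 1, 3 and 6 in Pcp2-cre mice, and it is named after its values were seen because the filter removed it although its groups did not overlap.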

How the data were processed

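Whole cerebellum was sequenced from 3 Pcp2-cre and 3 control mice. RNA was selected by poly A and read in pairs. According to the methods, trimmed reads went to STAR (GRCm39), and features of a Gencode table were counted by featureCounts and StringTie. Which Gencode release was used, whether strand was considered and how multi-mapping reads were handled are not given in the sources used here. The authors deposited 2 tables, one of raw counts and one of FPKM values for each gene. Groups, sex and mouse numbers came from the labels, and nothing was pooled.

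The main test was the quasi-likelihood test of edgeR 4.0.16 in R 4.3.3 on these counts, after filterByExpr and TMM and with genotype as the only term, with Benjamini-Hochberg adjustment over all 16961 tested genes. CPM values use TMM-scaled library sizes. FPKM values were used for levels between genes, sums, shares and ratios, which carry no test. No 2 libraries of a genotype were alike within counting error (chi-square per gene 1.35 to 3.39), and each counted as 1 mouse. The p-values test the genotype difference against the variation between these mice. The test moderates each gene's variation toward a trend over all tested genes. The fit was tried on simulated counts for this comparison (16789 genes). It called 100 of 100 genes changed by 1 and 96 of 100 changed by 0.75 on the log2 scale, and 6 of 16589 unchanged genes. Changed genes were drawn only from those above a minimum mean level, which *Kcnj2*, *Kcns1* and *Kcnk6* did not reach. Counts were drawn at the dispersion fitted to a gene's level, not to the gene itself. No change smaller than 0.75 was simulated, so the trial does not cover the size of most lower calls.

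Potassium channel genes were picked by symbol, which excludes 7 other Kcn symbols such as antisense genes. Named genes are members with an adjusted p of at most 0.05, the member with the highest FPKM of each subfamily, the members of lists by cell setting, members at 0 counts and partner genes that passed; other members named beside them are relatives given with their values. The members, the gene lists and the rules were chosen with earlier results of these data known. Coordinates, exon overlaps and coding sequences came from Gencode M39, in which all 92 members were found. Of these, 46 share exonic bases with a gene on the opposite strand. The alternatives were DESeq2 1.42.0, DESeq2 size factors, other filters, a replicate block, sex as a covariate, limma 3.58.1 on log2 FPKM with a pseudocount of 1 or 0.1, and each mouse left out. Male mice alone, and control mouse 3 alone, were added after seeing the data. Some single genes are not reported here.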

Additional observations from a re-analysis of the deposited data

How the results depend on the processing

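DESeq2 size factors, sex as a covariate and at least 10 counts in every mouse kept the 4 counts of members within 1.5 times, as did males alone. Members called higher, 3 in the analysis reported, numbered 1 with DESeq2, with control mouse 3 alone, and in each of 3 limma fits to FPKM. Members higher at any size, 5 as reported, numbered 2 with DESeq2, 1 with control mouse 3 alone and 1 in each limma fit. Members lower at any size, 11 as reported, numbered 6 in limma with a pseudocount of 1 or 0.1 and 2 in limma without a filter, where 1 was called lower. Without a filter on counts 8 were called lower. *Kcnj13* reversed to 0.072 with control mouse 3 alone, where the single control is assumed to vary like the other group. Leaving out each mouse in turn gave 2 to 7 called lower, 1 to 3 called higher, 7 to 12 lower and 2 to 4 higher at any size. The median log2 fold change stayed below 0 in all 17 alternatives. Deviations of same-numbered mice correlated at 0.0408, 0.0565 and 0.166, the last for mouse 3. Mice 1 and 2 across numbers correlated at 0.0522 and 0.073. Mouse 3 of either genotype correlated with mice 1 and 2 of the other at -0.111 to -0.081. Mouse 3 was the female, so sex and mouse number cannot be told apart here. The numbers were not taken as pairs. With the replicate block 6 were called lower, 1 called higher, 11 lower and 3 higher at any size, and the calls of *Kcnk6* and *Kcns1* were lost (adjusted p = 0.0540 and 0.0524). Of 627 values of named members over all alternatives, 46 lost the call at the same sign. The reversed *Kcnj13* value lost it as well, and 1 value newly met both thresholds (*Kcnk2* without control mouse 3, 0.50). The adjusted p threshold alone was lost by 76 values and gained by 1 (*Kcnj16*). Besides *Kcnj13*, 37 values of 14 members that had not passed took the other sign, all at most 0.20 in size and none at an adjusted p of 0.05 or less. *Kcna6* lost the adjusted p threshold in the 3 limma fits, *Kcnk9* in these and with control mouse 3 alone, and *Kcnab2* in limma without a filter. The cause of these differences was not tested. Depth limits the members under about 10 counts per mouse, most of which could not be tested.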

Other observations

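The 7 Kcn symbols outside the rule were *Kcnab3os*, *Kcnd3os*, *Kcne1l*, *Kcnmb4os1*, *Kcnmb4os2*, *Kcnq1ot1* and *Kcnrg*. All were tested by edgeR and none passed, with log2 fold changes from -0.17 for *Kcnmb4os2* to 0.40 for *Kcnrg*. The transcript *Kcnq1ot1*, the long RNA of the imprinted *Kcnq1* locus, had 29.9 to 33.3 CPM in control and 31.7 to 37.3 CPM in Pcp2-cre mice, while *Kcnq1* itself had 5 to 15 counts per mouse.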
